A study of Mus musculus with 2 samples.

Results

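The genes of lipogenesis, triglyceride storage and lipid droplets were followed in AML12 cells, a non-transformed hepatocyte line of mouse liver. The set holds 41 named genes, chosen by symbol with earlier results of these data known. Their roles are fatty acid synthesis and its regulation, elongation and desaturation, glycerolipid synthesis, droplet coats, lipolysis and fatty acid uptake. All 41 were found among the 35275 genes of the deposited table, and 39 of them had at least 10 reads over both libraries. RNAseq compared untreated control cells, titled Young, with cells titled Old that were driven into premature senescence by hydrogen peroxide and are called senescent AML12 cells here. Peroxide was given in medium without serum for 1 h per day on 6 days, starting with 1 mM and continuing with 750 μM from the next day, with recovery in complete medium in between. The labels give CD-1 strain, liver, male and 3 months for both groups, and both were grown with serum, insulin-transferrin-selenium supplement and dexamethasone. The line was derived from a mouse carrying a transforming growth factor alpha transgene, which both groups therefore share. RNA of 3 samples per condition was pooled into 1 library, so each condition has 1 measurement, no p-value was computed, and every ratio compares those libraries rather than the conditions.

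The control library held 28021941 counted reads and the senescent library 25738075. Counts were scaled with TMM factors of 1.04 and 0.964, and the ratio of senescent over control is given on the log2 scale with a 95% Clopper-Pearson interval. The intervals, and the floor of 3 reads used below, address counting error only, because each condition is 1 library. Reads copied by PCR and carrying no molecular identifier do not count separate molecules. The intervals treat reads as independent, so they may be too narrow even for counting error. "Fell" and "rose" are used for genes with at least 10 reads, a log2 ratio past 1.5, which is the threshold of the study, and an interval without 0. All 12 hepatocyte markers had reads in the libraries, with 250002 control and 253061 senescent reads in all, of which Krt8 and Krt18 gave 159915 and 205724 and the other 10 markers 90087 and 47337. Alb, which encodes albumin, fell from 32076 to 2917 reads and Apoa1 fell from 2026 to 197, while Ttr (-0.91), Serpina1a (-1.42) and Cebpa (-1.44) were lower in ratio without passing the threshold. Apoe was at -0.36, Trf at -0.37 and Afp at 0.02, and Hnf4a (0.14) and Apob (0.41) had intervals above 0. Among the adipocyte markers, Lep, Plin1, Cfd and Retn were at 0 in both libraries and Adipoq at 0 and 1 read. Cidea had 5 and 5 reads, and Fabp4 fell from 22 to 6. The 6 macrophage markers summed to 5627 and 2035 reads, of which Cd14 made up 5551 and 1879, and Adgre1 and Clec4f were at 0. In that list Ptprc rose from 27 to 76 reads and Csf1r rose from 15 to 40, and their part in the lipid gene values was not tested. In the remaining lists, the fibroblast and stellate markers summed to 27 and 10 reads, the endothelial markers to 6 and 13, and the cholangiocyte markers to 55165 and 35238. These sums hide differences, as Col1a1 fell from 21 reads to 1 while Dcn had 0 and 4. Krt7 (-1.43) and Spp1 (-1.04) were below 0, Krt19 was at -0.03 and Sox9 at 0.54. Per length, the control had 424.2 RPKM of Krt19 and 530.6 of Spp1, beside 471.0 of Alb.

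Hepatocytes build fatty acids from citrate-derived acetyl-CoA, lengthen and desaturate them, and join them to a glycerol backbone to form triglyceride. Triglyceride is packed into lipid droplets coated by perilipins, and lipases at the droplet surface release the fatty acids again. The transcription factors ChREBP (gene Mlxipl) and SREBP (gene Srebf1) are the classical activators of this programme in liver, responding to carbohydrate and to insulin.

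No gene of the set rose and 6 fell. The 6 are 15.4% of the 39 members with at least 10 reads, while 5.6% of the 14383 genes with that many reads were lower and 2.71% higher past the same threshold. Those that fell were Mlxipl, the droplet coat genes Plin4 and Plin5, the droplet-bound hydrolase gene Pnpla3, the lipoprotein lipase gene Lpl and the liver fatty acid binding protein gene Fabp1. Past a threshold of 1 the members were 0 higher and 10 lower (25.6%), beside 5.09% higher and 9.98% lower of all genes. By the interval alone, 27 members (69.2%) were below 0 and 7 (17.9%) above it, and in 5 the interval held 0. Among all genes the intervals of 34.6% lay below 0 and those of 34.0% above. The median log2 ratio of the members was -0.51, and that of all genes -0.02. The share of all reads that fell on the members was 0.603% in control and 0.444% in senescent cells. This share follows its most read gene, since Scd2 gave 56336 of 168941 member reads in control and 29746 of 114349 in senescent cells. In a bulk measurement fewer cells that use a gene and less RNA of it per cell cannot be told apart.

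**Figure D1:**
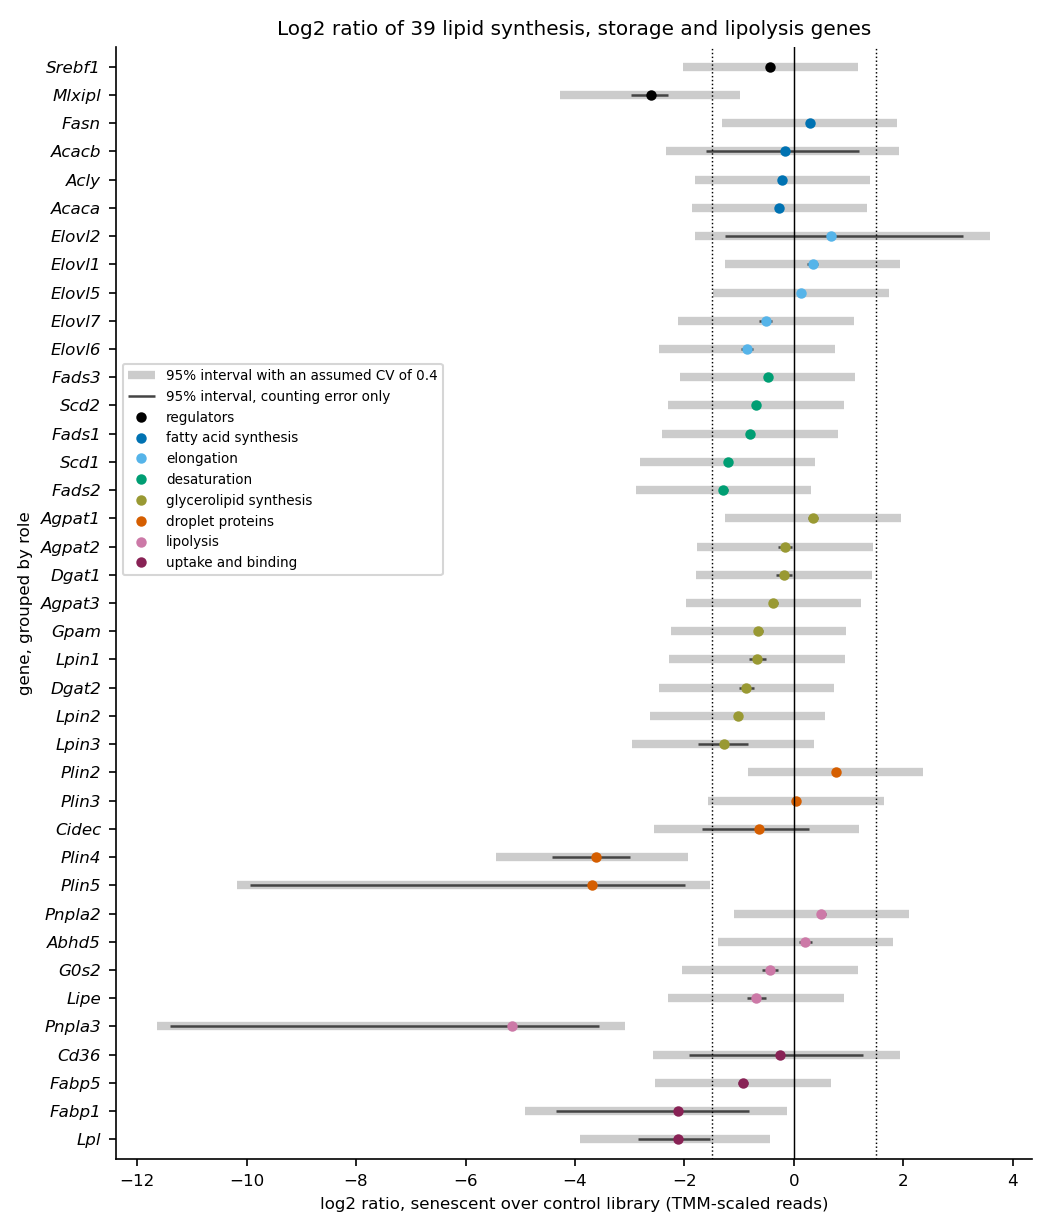
Log2 ratio of senescent over control library (x axis, TMM-scaled reads) for the 39 genes with at least 10 reads (y axis, grouped by role). Points are ratios, dark lines 95% intervals from counting error, grey bars the same interval for an assumed coefficient of variation of 0.4 between samples, and dotted lines mark 1.5 either side of 0. The 6 genes that fell lie left of the lower dotted line, the ratio nearest to them outside it is Fads2 at -1.29, the nearest inside are Lpl and Fabp1 at -2.12, and no gene lies right of the upper one.

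The genes that fell were all read at low depth. Each of the 6 had under 1000 reads over both libraries, where 54.5% of the 11 tested members and 10.2% of all 6579 genes of that depth were lower past 1.5. The other 28 members had at least 1000 reads, and none of them passed the threshold in either direction. At that depth 20 of 28 members (71.4%) had an interval below 0, against 34.2% of 7804 genes, with a median of -0.43 against 0.08. If a coefficient of variation of 0.1 between cultures was assumed, 22 of 39 members (56.4%) stayed below 0 and 2 (5.13%) above, beside 21.3% and 17.3% of all genes. At 0.4 the counts were 6 (15.4%) and 0, beside 4.14% and 1.81%.

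**Figure D2:**
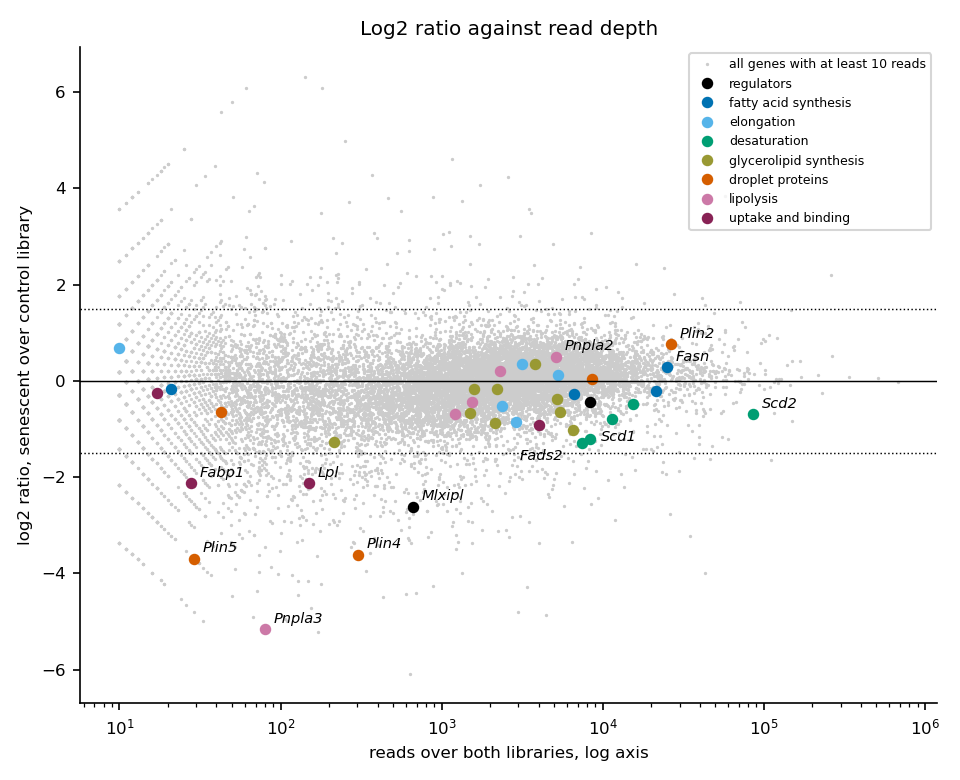
Log2 ratio of senescent over control library (y axis) against reads over both libraries (x axis, log scale), with all 14383 genes of at least 10 reads in grey and the 39 members coloured by role. The 6 members below the lower dotted line at -1.5 lie left of 1000 reads, and the deepest member, Scd2, stands at -0.69.

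Promoter sequence is shown for 4 genes on which the contrast turns, Mlxipl and Pnpla3, which fell, and Fasn and Pnpla2, whose ratios were above 0. The windows are the 150 bases before the RefSeq start on GRCm38.p6, written 5′ to 3′ on the gene's strand, and capitals mark matches on either strand to the E-box CACGTG, the sterol regulatory element TCACNCCAC, the CCAAT box or the GC box GGGCGG. Mlxipl has 2 starts in RefSeq, at chr5:135089740-135089889 (plus strand) and within the gene at chr5:135106741-135106890 (plus strand). Pnpla3 is at chr15:84167666-84167815 (plus strand), Fasn at chr11:120824548-120824697 (minus strand) and Pnpla2 at chr7:141455038-141455187 (plus strand).
Mlxipl, first start: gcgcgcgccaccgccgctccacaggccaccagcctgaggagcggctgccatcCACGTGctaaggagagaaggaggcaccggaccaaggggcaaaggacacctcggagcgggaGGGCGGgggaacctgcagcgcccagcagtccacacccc
Mlxipl, second start: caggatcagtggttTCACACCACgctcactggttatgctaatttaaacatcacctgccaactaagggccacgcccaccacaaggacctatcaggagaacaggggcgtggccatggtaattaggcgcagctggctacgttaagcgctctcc
Pnpla3: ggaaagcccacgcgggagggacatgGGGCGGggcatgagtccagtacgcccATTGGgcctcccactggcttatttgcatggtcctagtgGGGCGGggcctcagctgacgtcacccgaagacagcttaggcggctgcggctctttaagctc
Fasn: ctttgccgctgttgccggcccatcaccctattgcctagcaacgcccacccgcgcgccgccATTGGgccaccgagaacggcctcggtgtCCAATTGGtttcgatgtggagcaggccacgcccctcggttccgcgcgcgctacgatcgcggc
Pnpla2: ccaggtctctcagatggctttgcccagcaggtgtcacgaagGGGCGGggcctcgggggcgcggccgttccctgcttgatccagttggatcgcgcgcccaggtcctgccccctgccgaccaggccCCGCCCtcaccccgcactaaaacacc
The first Mlxipl window holds 1 E-box and 1 GC box, and the second holds 1 match to the sterol regulatory element. Pnpla3 holds 2 GC boxes and 1 CCAAT box, Fasn 3 CCAAT boxes, of which 2 overlap on opposite strands, and Pnpla2 2 GC boxes. Over 250 bases before the start, 33 members had a sequence. The E-box was in 5 of them (15.2%; Mlxipl, Elovl5, Lipe, Lpin2 and Mgll), in 9.67% of 10394 genes with at least 10 reads and in 6.86% of all 27025 genes with a promoter. The sterol regulatory element was in 1 member (3.03%), in 1.35% of the former and 1.22% of the latter. CCAAT was in 16 members (48.5%), beside 40.6% and 37.5%, and GGGCGG in 22 (66.7%), beside 62.2% and 35.4%. No member held the DR1 motif, which 0.0481% and 0.0407% of genes did. A match describes these letters in this window only. Dgat1, Dgat2, Fabp5, Lpl, Elovl3, Scd2, Scd1 and Fads1 had no entry.

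The transcription factor genes differed in the size of their ratios. Mlxipl (ENSMUSG00000005373, GRCm38 chr5:135089890-135138382, plus strand) had 587 control and 81 senescent reads and fell by 2.61 on the log2 scale (interval -2.98 to -2.29), a 6.18-fold lower level. Srebf1 had 5135 and 3253 reads, a ratio of -0.43 (-0.49 to -0.37). Per length, the control level was 31.3 RPKM for Srebf1 and 3.65 for Mlxipl, and the senescent levels were 23.3 and 0.590. The annotated Srebf1 exons share 109 bases with Rai1 on the other strand (2853 and 2624 reads), and whether strand was used in counting is not given in the sources used here. From the other genes of the pathway, listed for this comparison, Mlx, the partner of ChREBP, had 1263 and 1484 reads (0.46), Srebf2 12693 and 9362 (-0.21), Scap, the escort of SREBP, 1983 and 1966 (0.22) and Insig1, which holds that complex in the endoplasmic reticulum, 1867 and 1070 (-0.57). None of these 4 passed the threshold, and they were named after their values were seen.

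Genes of the core fatty acid chain lay near 0. Acly, which makes cytosolic acetyl-CoA from citrate, had 12409 and 9128 reads (-0.21, interval -0.25 to -0.17). Acaca, the acetyl-CoA carboxylase of lipogenesis, had 3867 and 2745 (-0.26, -0.34 to -0.19). Fasn, the fatty acid synthase, had 12274 control and 12816 senescent reads, and its ratio of 0.29 (0.26 to 0.33) was above 0. So Fasn lay on the other side of 0 from Acly and Acaca, the enzymes that feed it, and its reads relative to Acly went from 0.989 to 1.40. At an assumed coefficient of variation of 0.1 each interval held 0 (Fasn -0.11 to 0.69, Acly -0.62 to 0.19, Acaca -0.67 to 0.14). Acacb, the mitochondrial carboxylase, had 12 and 9 reads, too few to place its ratio of -0.17 (-1.61 to 1.19). Summed over the 4 genes, reads went from 28562 to 24698, a ratio of 0.02 (-0.005 to 0.045). The value of Acaca carries a limit, since 6117 of its 9513 transcript bases match ENSMUSG00000111942, a gene without a count here, at 95% identity or more.

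All 5 desaturase genes were below 0, and none passed 1.5. Scd1, which introduces the first double bond into saturated fatty acids, had 6110 control and 2256 senescent reads, a ratio of -1.21 (-1.28 to -1.14). Scd2, its close relative, had 56336 and 29746 (-0.69, -0.71 to -0.67). Scd2 had the highest level per length of the set in both libraries, at 354.6 RPKM before and 219.5 after peroxide, where Scd1 had 43.0 and 18.6. The genes share 623 of 5455 Scd2 transcript bases at 95% identity or more, so that some reads may have been split between them. Fads2, which opens the polyunsaturated pathway, had 5509 and 1925 reads, at -1.29 (-1.36 to -1.21), the lowest of the 5. Fads1 had 7665 and 3753 (-0.80, -0.86 to -0.74) and Fads3 9521 and 5836 (-0.48, -0.52 to -0.43). These 3 neighbours on chromosome 19 had the order Fads3, Fads2, Fads1 per length in the control (86.3, 57.5 and 54.8 RPKM) and the order Fads3, Fads1, Fads2 in the senescent library (62.1, 31.5 and 23.6), with no replicate to give the spread of these levels. Fasn reads relative to Scd1 went from 2.01 to 5.68, a log2 change of 1.5 (1.42 to 1.58) that no library scaling enters.

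Elongases were spread on both sides of 0. Elovl6, which takes palmitate to stearate, had 1975 and 928 reads (-0.86, -0.97 to -0.75) and Elovl7 1490 and 890 (-0.51, -0.64 to -0.39). On the other side, Elovl1, an elongase of very long saturated chains, had 1516 and 1640 (0.34, 0.24 to 0.44), and Elovl5, which extends polyunsaturated chains, 2726 and 2543 (0.13, 0.05 to 0.21). Elovl6 therefore went from 15.3% to 8.53% of the summed RPKM of the family and Elovl1 from 27.7% to 35.6%. Under total-count scaling the interval of Elovl5 held 0 (-0.06 to 0.10). At an assumed coefficient of variation of 0.1 so did those of Elovl5 (-0.28 to 0.54) and Elovl1 (-0.07 to 0.76). Elovl2 had 4 and 6 reads, with an interval from -1.26 to 3.08, and Elovl3 was at 0 in both libraries, under the floor of 3 reads.

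Of the 9 genes that build glycerolipids, 8 had intervals below 0 and 1 above, with a median of -0.65 and none past 1.5. At an assumed coefficient of variation of 0.1, 5 stayed below 0 and 0 above, and those of Agpat1, Agpat2, Agpat3 and Dgat1 held 0. Gpam, the mitochondrial glycerol phosphate acyltransferase that opens the pathway, had 3505 and 1907 reads (-0.65, -0.73 to -0.57). The acyltransferases of the next step differed, with Agpat1 at 1814 and 1975 reads (0.35, 0.26 to 0.45), Agpat2 at 1261 and 959 (-0.17, -0.29 to -0.04) and Agpat3 at 3129 and 2060 (-0.37, -0.45 to -0.29). Agpat1 relative to Agpat3 thus shifted by 0.73 (0.60 to 0.85). The lipins, which dephosphorylate phosphatidic acid to diacylglycerol, were lower in ratio throughout, with Lpin1 at 980 and 525 reads (-0.67), Lpin2 at 4600 and 1929 (-1.02) and Lpin3 at 160 and 56 (-1.27, -1.75 to -0.84). The acyltransferases of the last step, unrelated in sequence, differed as well. Dgat1 had 902 and 681 reads (-0.18, -0.32 to -0.03) and Dgat2 1472 and 688 (-0.87, -1.0 to -0.74). Their levels per length were 10.2 and 16.4 RPKM in control cells and 8.99 and 9.00 in senescent cells, so that Dgat2 went from above Dgat1 to a level beside it.

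**Figure D3:**
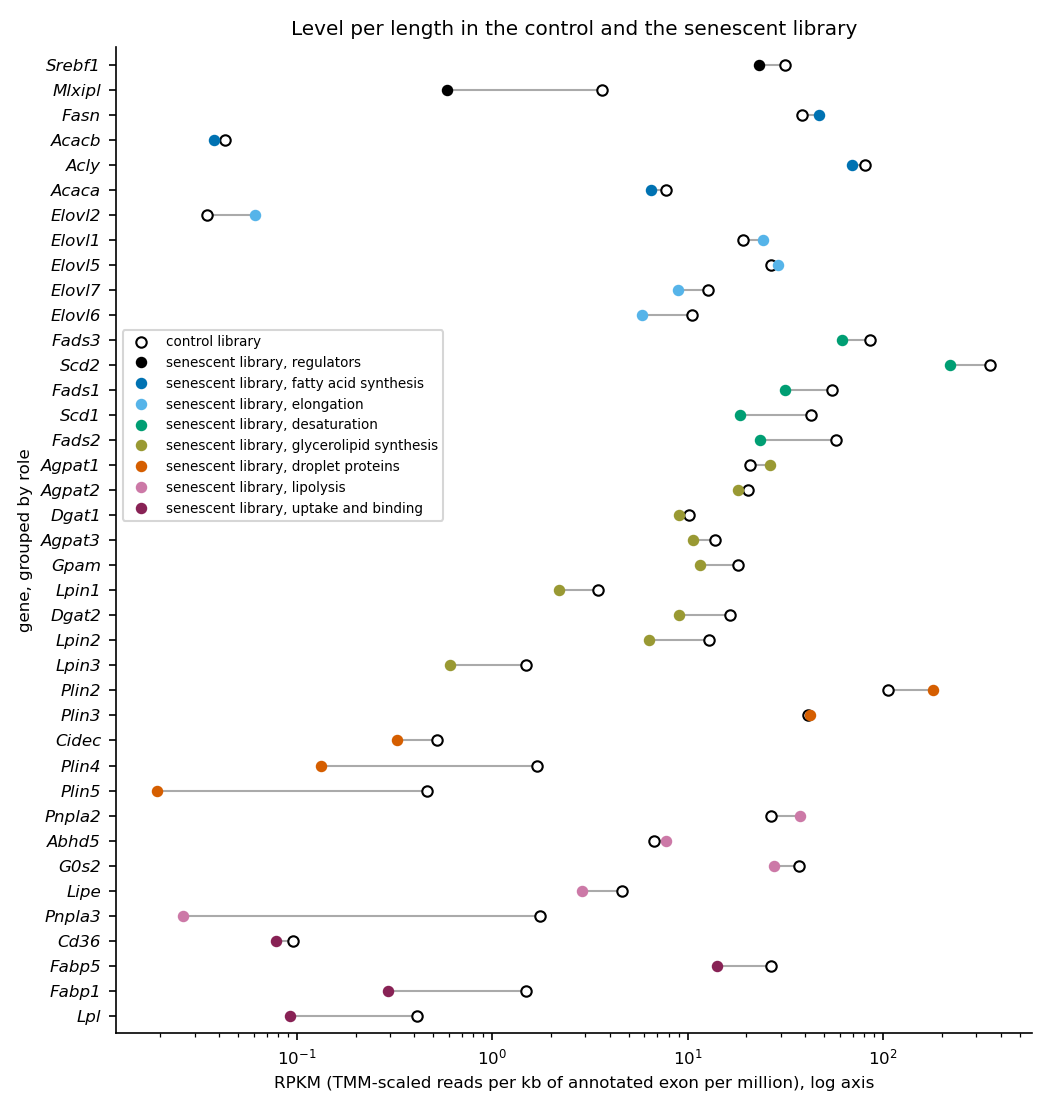
Level per length of the 39 genes with at least 10 reads (y axis, grouped by role) as TMM-scaled RPKM on a log axis (x axis), with the control library as open and the senescent library as filled circles. Scd2 and Plin2 lie furthest right in both libraries, Plin2 moves right from 105.9 to 180.3 RPKM, and Pnpla3, Plin4 and Plin5 move left to 0.133 RPKM or less.

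Among droplet coat genes the abundant and the rare ones differed. Plin2, the main perilipin of hepatocytes, had 10815 control and 15705 senescent reads, and its ratio of 0.77 (0.73 to 0.80) was the highest of the 39, though under the threshold of 1.5. Plin3, the coat protein shared with endosomal transport, had 4560 and 3996 reads (0.04, -0.02 to 0.10), an interval that holds 0. In contrast, Plin4 (chr17:56100591-56109803, minus strand) fell from 284 to 19 reads, a ratio of -3.61 (-4.43 to -3.0), and shares 17 exon bases with Hdgfl2 on the other strand (1828 and 1714 reads). Plin5 (chr17:56111601-56117596, minus strand), a perilipin linked to mitochondria, had 28 reads and 1 read, with a ratio of -3.69 (-9.93 to -1.98). Cidec, which fuses droplets, had 28 and 15 reads (-0.64, -1.68 to 0.28). The summed reads of these 5 genes were 15715 in control and 19736 in senescent cells, a ratio of 0.56 (0.53 to 0.59), while their median was -0.64. Sum and median thus have opposite signs, but with a minimum of 100 reads, which leaves out Plin5 and Cidec, the median was 0.04 (-0.02 to 0.10). Plin2 gave 70.8% of the summed perilipin RPKM in control and 80.9% in senescent cells, and Plin4 gave 1.13% and 0.0595%.

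**Figure D4:**
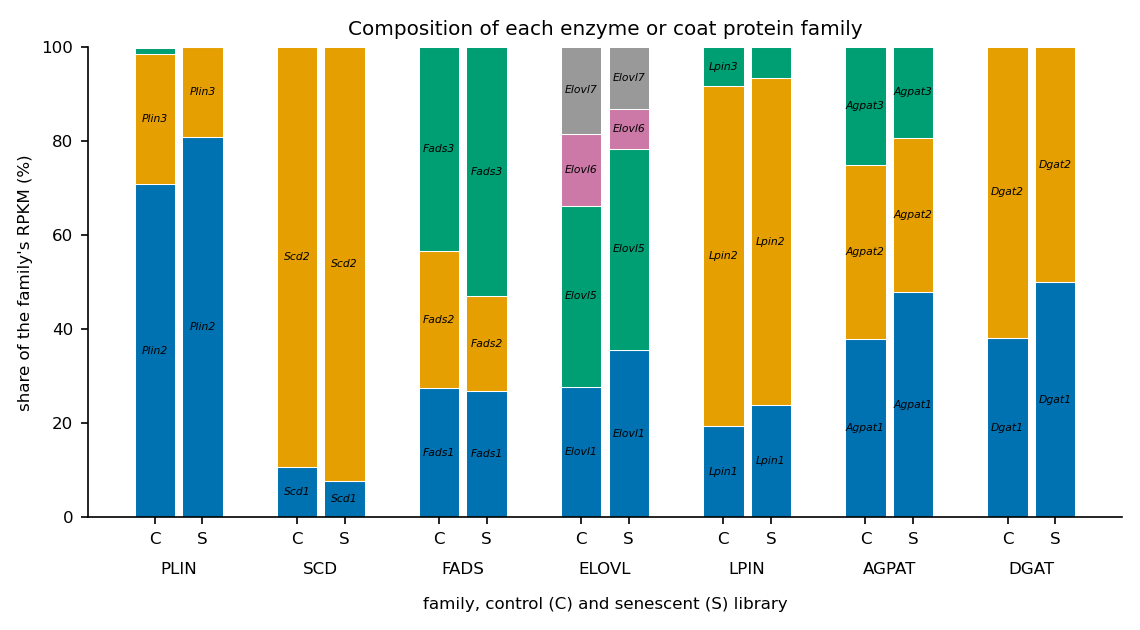
Share of each gene in the summed RPKM of its family (y axis, %), for the control (C) and the senescent (S) library of 7 families (x axis). The unlabelled segments are Plin4 in the control and Lpin3 in the senescent library, Plin5 and Elovl2 are too small to see, the Plin2 segment grows from 70.8% to 80.9%, and Dgat1 and Dgat2 come to nearly equal shares in the senescent library.

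Lipolysis genes lay on both sides of 0. Pnpla2, which encodes adipose triglyceride lipase, the first enzyme of triglyceride breakdown, had 2338 control and 2823 senescent reads, a ratio of 0.50 (0.42 to 0.58). Its co-activator Abhd5 had 1162 and 1148 (0.21, 0.09 to 0.33), and its inhibitor G0s2 had 947 and 598 (-0.43, -0.58 to -0.28). Pnpla2 was thus above 0 and G0s2 below. Hilpda, another inhibitor of this lipase outside the set, went the other way from G0s2, at 0.41 (0.30 to 0.54). It was named after its values were seen. The interval of Abhd5 held 0 under total-count scaling (-0.01 to 0.22) and at an assumed coefficient of variation of 0.1 (-0.21 to 0.63). At that coefficient the interval of Hilpda held 0 too (-0.002 to 0.83). In relative terms Pnpla2 over G0s2 shifted by 0.94 (0.77 to 1.11). The next enzyme, hormone-sensitive lipase, encoded by Lipe, had 794 and 420 reads (-0.69, -0.86 to -0.52). Monoacylglycerol lipase, encoded by Mgll, had 0 and 3 reads, at the floor in both libraries, so that no ratio is given. Pnpla3 (chr15:84167837-84187236, plus strand), a relative of Pnpla2 on the droplet surface, had 79 reads and 1 read, a ratio of -5.15 (-11.4 to -3.55) and the lowest of the 39, and 105 of its exon bases are shared with ENSMUSG00000116227 on the same strand. Without G0s2 the median of the lipolysis genes was -0.24, and with it -0.43. Antisense exons overlap Lipe over 918 bases (4732471J01Rik, 65 and 30 reads) and Abhd5 over 950 bases (A730085K08Rik, 10 and 6 reads).

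Genes of uptake and binding were few and mostly low. Lpl, which releases fatty acids from lipoproteins, fell from 126 to 24 reads, at -2.12 (-2.86 to -1.53), and Fabp1 fell from 24 to 4, at -2.12 (-4.34 to -0.81). Fabp5, the epidermal binding protein, had 2787 and 1250 reads (-0.93, -1.02 to -0.83) and gave 94.7% and 98.0% of the summed RPKM of both binding protein genes. Cd36, a fatty acid translocase, had 10 and 7 reads (-0.25, -1.92 to 1.26).

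Set side by side over all genes with at least 10 reads, synthesis, droplet and lipolysis genes differed less in their medians than in their spread. The 23 tested synthesis enzymes had a median of -0.48 and ran from -1.29 to 0.68, with 17 intervals below 0, 4 above and 2 that held 0. The 5 droplet genes had a median of -0.64 and ran from -3.69 to 0.77, with 2 below, 1 above and 2 that held 0. For lipolysis the 5 tested genes had a median of -0.43 between -5.15 and 0.50, with 3 below and 2 above. Plin5 and Pnpla3, at 1 senescent read, stay below the middle gene of their groups when set to the floor of 3. That setting therefore could not move these medians. With at least 100 reads the medians were -0.51 for synthesis, 0.04 for droplet genes and -0.11 for lipolysis. The ratios then ran from -1.29 to 0.35, from -3.61 to 0.77 and from -0.69 to 0.50, in that order. The wide range of lipolysis thus rested on Pnpla3, and without it lipolysis was narrower than synthesis. The 4 uptake and binding genes had a median of -1.52. Summed reads gave -0.74 (-0.76 to -0.72) for desaturation, -0.50 (-0.53 to -0.46) for glycerolipid synthesis, -0.13 (-0.18 to -0.08) for elongation, 0.14 (0.08 to 0.19) for lipolysis and 0.56 for droplet genes. Such a sum follows its most read genes, since Scd2 held 66.2% of the control desaturase reads and Plin2 68.8% of the droplet reads. Ratios between genes of different roles were formed after their values were seen. Plin2 relative to Dgat2 shifted by 1.64 (1.5 to 1.77) and Pnpla2 relative to Dgat2 by 1.37 (1.22 to 1.52), both towards the droplet coat and the lipase.

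Beyond the 41 members, 64 other genes of the pathway were listed, of which 49 had at least 10 reads. Of these, 4 rose (8.16%, beside 2.71% of all genes) and 3 fell (6.12%, beside 5.6%), their median was -0.15, and 15 intervals lay above 0, 22 below and 12 held 0. Gpat3, a glycerol phosphate acyltransferase of the endoplasmic reticulum, rose from 32 to 113 reads, at 2.01 (1.47 to 2.66), while Gpat4 of the same membrane had 6440 and 5486 (0.00, -0.05 to 0.05). Fitm2, which is needed for droplet budding, rose from 934 to 2333 reads, at 1.55 (1.44 to 1.66), a call that was lost under total-count scaling and, with an interval of -0.05 to 3.15, at an assumed coefficient of variation of 0.4. Acss2, which makes acetyl-CoA from acetate, fell from 317 to 94, at -1.51 (-1.87 to -1.19), and its interval of -3.16 to 0.11 held 0 at that coefficient. A further 3 with under 100 reads were named after their values were seen. Slc27a2, a fatty acid transporter, had 0 and 12 reads, 4.69-fold higher with the control set to the floor of 3 reads. The lower limit of its interval was 1.70 on the log2 scale. Thrsp, a lipogenic protein, had 1 and 10 (2.62, 0.74 to 8.99), and Fabp4, also among the adipocyte markers above, fell from 22 to 6 (-1.51, -3.24 to -0.30). On the droplet, Hilpda, an inhibitor of adipose triglyceride lipase, had 1063 and 1209 reads (0.41), Cideb 1038 and 381 (-1.21) and Hsd17b13 309 and 108 (-1.28). These 3, like Gpat4 and the receptor genes that follow, were also named after their values were seen. The nuclear receptor genes Nr1h3 and Ppara had 1126 and 427 (-1.17) and 1062 and 438 reads (-1.05), under the threshold of 1.5.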

How the data were processed

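RNAseq was measured in 1 control and 1 senescent library. The authors deposited un-normalized counts of reads per Ensembl gene. The submitters' processing notes list mm10, CASAVA, STAR, DESeq2 and edgeR without roles, and the counting tool, annotation and use of strand are not given in the sources used here. Columns were assigned by the initials of the sample titles. Symbols, positions and union exon lengths, which can overstate the length in use and so understate RPKM, came from GENCODE M21 on GRCm38, and promoters from RefSeq on GRCm38.p6. Counts were scaled by TMM in edgeR 4.0.16 (R 4.3.3), with a prior count of 1. Ratios and intervals were computed in Python 3.11.15 with scipy 1.17.1, shared sequence with blastn 2.17.0, and the code was tested on simulated data. With 1 library per condition, no count test was run. The members and lists were chosen with earlier results of these data known. Any member could be named, and other pathway genes if past the threshold with at least 100 reads, and those named outside this rule are marked. Some genes counted in the lists are not reported here. Alternatives were total-count, upper-quartile and DESeq2 1.42.0 scaling, at least 1 or 100 reads, prior counts of 0.125 or 5, thresholds of 1 or 2 and assumed coefficients of variation of 0.1 or 0.4.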

Additional observations from a re-analysis of the deposited data

How the results depend on the processing

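No member was higher under any of the alternatives, and 6 were lower under every alternative but a minimum of 100 reads (3 lower) and a threshold of 1 (10 lower). Of the other pathway genes, 3 were higher under total-count scaling, a prior count of 5, a threshold of 2 or an assumed coefficient of variation of 0.4, 2 were higher and 1 lower with at least 100 reads, 1 was lower under a prior count of 5, a threshold of 2 or an assumed coefficient of variation of 0.4, and 7 were lower past a threshold of 1. Total-count scaling moved the median of all genes by -0.107 and the synthesis median to -0.583. The lipolysis median was -0.111 with at least 1 read, where Mgll joins, and with at least 100 reads, where Pnpla3 is left out. The droplet median of -0.64 turned to 0.039 with at least 100 reads. The elongation median of 0.13 turned to -0.192 with at least 100 reads, where Elovl2 is left out. By single gene, 19 of 39 ratios moved out of the counting interval of the main analysis under total-count scaling and 3 under upper-quartile scaling. None did under the other alternatives tried, and no call of a member changed under these. No paired analysis was possible because each condition is 1 library. Pooling removes the spread between samples, so that a ratio of any size has no replicate check. A count of 3 reads corresponds to 0.103 CPM in control and 0.121 CPM in senescent cells.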

Other observations

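Positions of the members in clusters were examined after their values were seen. Within 100 kb of Plin3, Plin4 and Plin5 on chromosome 17, 15 other genes with at least 10 reads had a median log2 ratio of -0.18. Lrg1, which encodes a secreted leucine-rich glycoprotein and lies next to Plin5 at chr17:56119678-56122001, fell from 51 to 4 reads, a ratio of -3.17 (-5.37 to -2.00). It was the lowest of the 15, whose highest was Hdgfl2 at 0.14. Hdgfl2 shares 17 exon bases with Plin4 on the other strand.

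Around the Fads genes on chromosome 19, 7 neighbours had a median of 0.08, between -0.66 for Rab3il1 (82 and 44 reads) and 1.12 for Dagla (1015 and 1886 reads), which encodes a diacylglycerol lipase. All 3 Fads genes were below 0 in ratio, while Fen1, a nuclease gene beside Fads1, had 1890 and 2118 reads (0.39) and Myrf 15264 and 13062 (0.00). Tmem258, which lies between Fen1 and Myrf, was below 0 as well, with 2510 and 1776 reads (-0.27, -0.36 to -0.18).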
